A study of Mus musculus with 8 samples.

Results

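The genes described here are 33 enzymes and transporters of glycolysis, lactate, pyruvate dehydrogenase and glycogen metabolism, listed by gene symbol from the textbook pathway with earlier results of these hearts known, by a rule that itself reads no measured level. Each symbol was matched to 1 mouse Ensembl identifier in the count tables, and all 33 of the 49315 genes listed were found and had enough counts to be tested. By step, 9 members act in the phosphorylation and splitting of hexoses, 8 between the triose phosphates and pyruvate, 4 in making or carrying lactate, 6 in or on the pyruvate dehydrogenase complex, and 6 in glycogen metabolism.

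RNA-seq was performed on whole mouse hearts at embryonic day 9.5 (E9.5), with 4 libraries from wild-type hearts and 4 from hearts homozygous for Tbx20EH1Mut, each made from 3 pooled hearts. Tbx20 is a T-box transcription factor of the developing heart, and Tbx20EH1Mut is a germline knock-in made by genome editing that replaces 2 amino acids in its EH1 domain, the motif through which it binds the TLE corepressors. The substitution is present in every cell of the embryo, so the hearts compared are not changed in cardiac cells alone. The wild-type and mutant hearts were sampled at the same day, and no group received a treatment. The study describes mutant embryos at this day as growth retarded, with pericardial edema, hemorrhage and hearts that had not looped. Growth and heart form thus differ together with genotype, and their part in the results was not tested. Total counts ranged from 33359322 to 49523086 per wild-type library and from 36250675 to 38357025 per Tbx20EH1Mut library. Levels are given as CPM, the counts relative to the TMM-scaled size of a library, with the SD over 4 libraries. Differences were tested with the quasi-likelihood test of edgeR, Benjamini-Hochberg adjustment covered all 17163 genes tested, and genes with an adjusted p of 0.05 or less were called. In RNA from whole hearts, fewer cells of a type and less RNA per cell cannot be told apart.

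Glycolysis breaks glucose down to pyruvate in the cytosol and yields ATP without oxygen. Lactate dehydrogenase turns pyruvate into lactate and restores the NAD that the pathway needs, while the pyruvate dehydrogenase complex sends pyruvate into the mitochondrial citric acid (TCA) cycle. The early embryonic heart relies strongly on glycolysis and stores glycogen, and oxidative metabolism gains weight as cardiomyocytes mature. Many steps can be run by several isoenzymes encoded by separate genes, of which some are typical of muscle and others of liver, brain or most tissues.

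The members moved in both directions, and more rose than fell. Of the 33 members, 20 were called, or 60.6%, against 29.3% of all genes tested. In Tbx20EH1Mut hearts 14 members, or 42.4%, were higher, against 14.0% of all genes tested that were called higher. The 6 members that were lower, or 18.2%, were a share close to the 15.3% of all genes tested that were called lower. A log2 fold change of 1 or more in either direction was reached by 3 called members of the 33, *Aldoc*, *Eno2* and *Pygl*, a share close to the 10.8% of all genes tested. The libraries of the 2 genotypes did not overlap for 19 of the 33 members, 14 of them higher and 5 lower in the mutant, against 30.5% of all genes tested. The median log2 fold change of the members was 0.26, beside 0.0048 over all genes tested, and single members ranged from -0.83 to 2.18. Called members were spread over each part of the pathway, with 8 of 9 in the hexose steps, 3 of 8 from triose to pyruvate, 2 of 4 for lactate, 2 of 6 for pyruvate dehydrogenase and 5 of 6 for glycogen. The plot of fold changes by step shows that the 2 members called in the pyruvate dehydrogenase group both fell, and that the glycogen group held rises and falls of similar size.

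**Figure D1:**
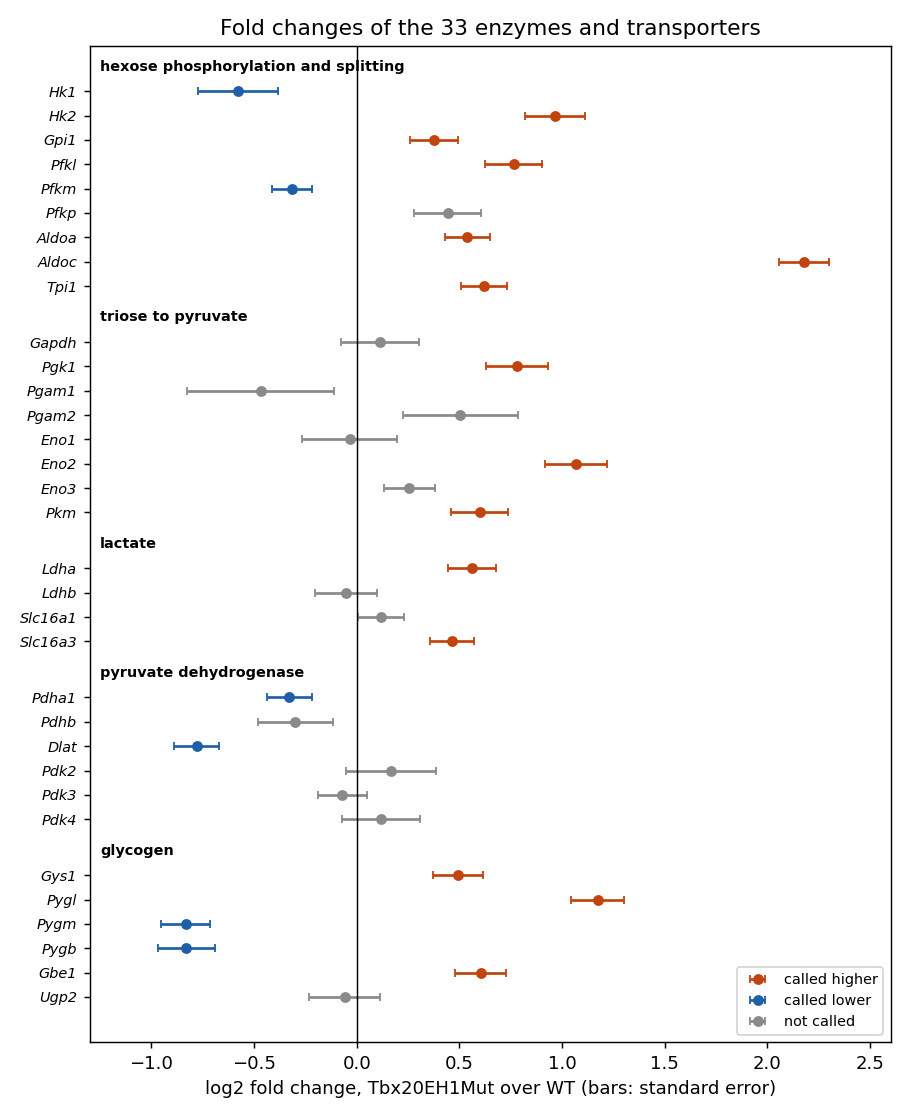
Log2 fold change of each of the 33 members in Tbx20EH1Mut over wild-type hearts (x axis), ordered by step of the pathway (y axis), with bars for the standard error and colour for the edgeR call. *Aldoc* lies farthest to the right at 2.18, and *Pygm* and *Pygb* lie farthest to the left at -0.83.

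Some libraries stood apart within their genotype. Over the 17163 genes tested, the deviations of wild-type library 1 from its group and those of Tbx20EH1Mut library 3 from its group had a correlation of 0.505, and wild-type library 2 and Tbx20EH1Mut library 1 gave 0.478, which are descriptions across genes that share these libraries. Among the members this appeared at *Gapdh*, *Pgam1* and *Eno1*, which were lowest in wild-type library 1 and in Tbx20EH1Mut library 3, while *Pgam2* was highest in the same 2 libraries. The members together took 2.03% to 2.46% of all counts in the wild-type libraries and 2.31% to 3.33% in the mutant libraries, with the lowest share of each genotype again in wild-type library 1 and Tbx20EH1Mut library 3. The deviations of a library from its genotype also went with exon length over these genes, with a Spearman correlation of -0.317 in wild-type library 1 and 0.472 in wild-type library 2, against -0.174 to 0.129 in the other libraries, and the part of exon length in the results was not tested. Where these libraries move a value of these genes most, the value without them is given below.

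Levels of cell type markers also differed between the genotypes. None of 8 cardiomyocyte markers was called and none was at 0, with a summed level of 22046 to 30506 CPM in wild-type and 22130.0 to 33576 CPM in Tbx20EH1Mut libraries. All 8 erythroid markers fell, from a summed level of 1771 to 4619 CPM to one of 320.3 to 1028 CPM. Of 8 foregut epithelium markers 5 rose, and their sum went from 189.6 to 288 CPM to 652 to 871 CPM, with the highest sums in wild-type library 2 and in Tbx20EH1Mut libraries 1 and 4. Of 8 markers of endothelium and endocardium 3 rose, of 5 tested neural markers 1 rose and 1 fell, and of 5 mesothelial markers 1 rose. *Tbx20* itself fell from 368 ± 11.1 CPM to 267 ± 44.9 CPM (log2 fold change -0.46 ± 0.13 SE, edgeR adjusted p = 0.0273), a call that was lost without wild-type library 3 or 4 or Tbx20EH1Mut library 1 or 2 (adjusted p up to 0.0726), and since gene counts do not read the substitution, its level is no check of the labels. With wild-type library 2 and Tbx20EH1Mut libraries 1 and 4 left out together, the libraries with most foregut marker RNA in their genotype and a choice made after the data were seen, the calls numbered 1164 genes in all and 7 of the 33 members, in a fit of 3 wild-type and 2 mutant libraries. These were *Hk2*, *Aldoc*, *Eno2*, *Gys1* and *Pygl*, which were higher, and *Dlat* and *Pygm*, which were lower, and all 20 members called with every library kept their direction. The fold changes of members that lost their call moved little, with *Pfkl* at 0.77, *Ldha* at 0.56, *Pgk1* at 0.76 and *Pygb* at -0.82 on the log2 scale against 0.77, 0.56, 0.78 and -0.83 with all libraries, and *Hk1* moved most, to -0.41 from -0.58. Another set of 3 libraries, wild-type library 2 with Tbx20EH1Mut libraries 1 and 2, left 16 members called, 13 higher and 3 lower. The part of these shifts in the results below was otherwise not tested.

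The first step, the trapping of glucose as glucose phosphate by hexokinase, showed opposite changes of its 2 isoenzymes. Hexokinase 2, the insulin-responsive form typical of muscle and heart, is encoded by *Hk2* (chr6:82725025-82774454 in GRCm38). *Hk2* was at 203, 232, 181 and 183 CPM in wild-type libraries 1 to 4 and 413, 324, 470.01 and 352 CPM in Tbx20EH1Mut libraries 1 to 4. All mutant libraries lay above all wild-type libraries, and *Hk2* rose 1.95-fold (log2 fold change 0.96 ± 0.15 SE, edgeR adjusted p = 0.00156). *Hk1*, the widely expressed form that is also the main hexokinase of red blood cells, was at 253, 478, 358 and 381 CPM in wild-type libraries 1 to 4 and 258, 297, 199 and 231 CPM in Tbx20EH1Mut libraries 1 to 4. Wild-type library 1 lay inside the mutant range, and *Hk1* was the only called member whose genotypes overlapped, at 1.49-fold lower (log2 fold change -0.58 ± 0.20 SE, edgeR adjusted p = 0.0476). Without wild-type library 1 its log2 fold change was -0.73 (adjusted p = 0.0084), and without wild-type library 2 it was -0.41 (adjusted p = 0.116). With single libraries left out, the call held only without wild-type library 1 or Tbx20EH1Mut library 2. Leaving out any other library gave an adjusted p of 0.0839 to 0.118. The call was also lost with upper-quartile scaling (edgeR adjusted p = 0.0714) and in limma-voom (adjusted p = 0.0528). The erythroid markers also fell in the mutant libraries. In wild-type libraries 1 to 4 their sum was 1887, 1771, 3715 and 4619 CPM, beside *Hk1* at 253, 478, 358 and 381 CPM. The part of the erythroid markers in the *Hk1* value was not tested.

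Per kilobase of summed exon length, the scale on which levels of different genes can be compared, *Hk2* made up 44.3% ± 6.14 of the summed level of both hexokinase genes in wild-type and 69.1% ± 6.65 in Tbx20EH1Mut hearts. The share of *Hk2* was 53.4%, 40.9%, 41.9% and 40.8% in the wild-type libraries and 69.6%, 60.9%, 77.2% and 68.5% in the mutant libraries. *Hk1* was the more abundant gene in wild-type libraries 2 to 4, and *Hk2* in wild-type library 1 and in all 4 mutant libraries. The summed level of both genes, 76.5 ± 13.2 CPM per kilobase in wild-type and 94.2 ± 7.75 in mutant hearts, overlapped between genotypes.

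Phosphofructokinase, the main control point of glycolysis, and the isomerase before it also changed. *Gpi1*, which converts glucose phosphate to fructose phosphate, rose from 999 ± 85.7 CPM to 1296 ± 87.2 CPM (log2 fold change 0.38 ± 0.12 SE, edgeR adjusted p = 0.036). This call was among the weakest: it was lost without 6 of the 8 libraries in turn, all but wild-type library 2 and Tbx20EH1Mut library 3, with an adjusted p of up to 0.111. The liver-type subunit *Pfkl* was at 465, 549.5, 528 and 479 CPM in wild-type libraries 1 to 4 and 986, 959, 701 and 790.4 CPM in Tbx20EH1Mut libraries 1 to 4. The groups did not overlap and *Pfkl* rose 1.7-fold (log2 fold change 0.77 ± 0.14 SE, edgeR adjusted p = 0.00374). The muscle-type subunit *Pfkm* was at 87.7, 103, 105 and 102 CPM in wild-type libraries 1 to 4 and 81.4, 82.3, 80.5 and 75.6 CPM in Tbx20EH1Mut libraries 1 to 4. The mutant libraries differed little among themselves and all lay below the wild-type range, so that *Pfkm* fell 1.24-fold (log2 fold change -0.32 ± 0.10 SE, edgeR adjusted p = 0.0361), although this call remained only when wild-type library 1 was the one left out, and any other library left out gave an adjusted p of 0.0546 to 0.108. The platelet-type subunit *Pfkp* was at 206 ± 35.3 CPM in wild-type against 279.6 ± 47.8 CPM in Tbx20EH1Mut hearts and was not called (log2 fold change 0.44 ± 0.16 SE, edgeR adjusted p = 0.0661), but it passed the threshold without wild-type library 2 (log2 fold change 0.56, adjusted p = 0.0336) or without Tbx20EH1Mut library 3 (log2 fold change 0.56, adjusted p = 0.0229), and also with upper-quartile scaling (adjusted p = 0.0298) and in the Wald test of DESeq2 (adjusted p = 0.0353).

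Of the summed phosphofructokinase level per kilobase, *Pfkl* took 67.5% ± 1.48 in wild-type and 77.4% ± 1.35 in mutant hearts, *Pfkm* took 19.8% ± 0.894 and 10.9% ± 1.501, and *Pfkp* took 12.8% ± 1.29 and 11.8% ± 0.84997. The shares of *Pfkl* and *Pfkm* did not overlap between genotypes, whereas those of *Pfkp* did. The summed level of the 3 genes was 171 ± 14.5 CPM per kilobase in wild-type and 252 ± 36.1 in mutant hearts, again without overlap.

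Aldolase splits fructose bisphosphate into 2 triose phosphates, and its 2 measured genes both rose, by very different factors. *Aldoa*, the muscle and general form, was at 2154, 2161, 2261 and 2191 CPM in wild-type libraries 1 to 4 and 3269, 3421, 3011 and 3032 CPM in Tbx20EH1Mut libraries 1 to 4. All mutant libraries exceeded the wild-type libraries and *Aldoa* rose 1.45-fold (log2 fold change 0.54 ± 0.11 SE, edgeR adjusted p = 0.00639). *Aldoc*, the brain form (chr11:78322968-78327781), was at 8.41, 7.21, 6.81 and 6.76 CPM in wild-type libraries 1 to 4 and 33.05, 35.6, 30.2 and 33.3 CPM in Tbx20EH1Mut libraries 1 to 4. The libraries of each genotype were close together, and *Aldoc* showed the largest change of the 33 members, a rise of 4.53-fold (log2 fold change 2.18 ± 0.12 SE, edgeR adjusted p = 1.1e-05). Per kilobase *Aldoc* nevertheless remained a minor form, with 0.448%, 0.383%, 0.346% and 0.355% of the summed aldolase level in the wild-type libraries and 1.15%, 1.19%, 1.14% and 1.25% in the mutant libraries. The level per kilobase was 583 ± 12.98 CPM for *Aldoa* and 2.24 ± 0.234 CPM for *Aldoc* in wild-type hearts, and 846 ± 52.4 CPM and 10.1 ± 0.684 CPM in mutant hearts. *Tpi1*, which interconverts the triose phosphates, rose 1.54-fold from 1322 ± 96.01 CPM to 2031 ± 111 CPM without overlap (log2 fold change 0.62 ± 0.11 SE, edgeR adjusted p = 0.00382).

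**Figure D2:**
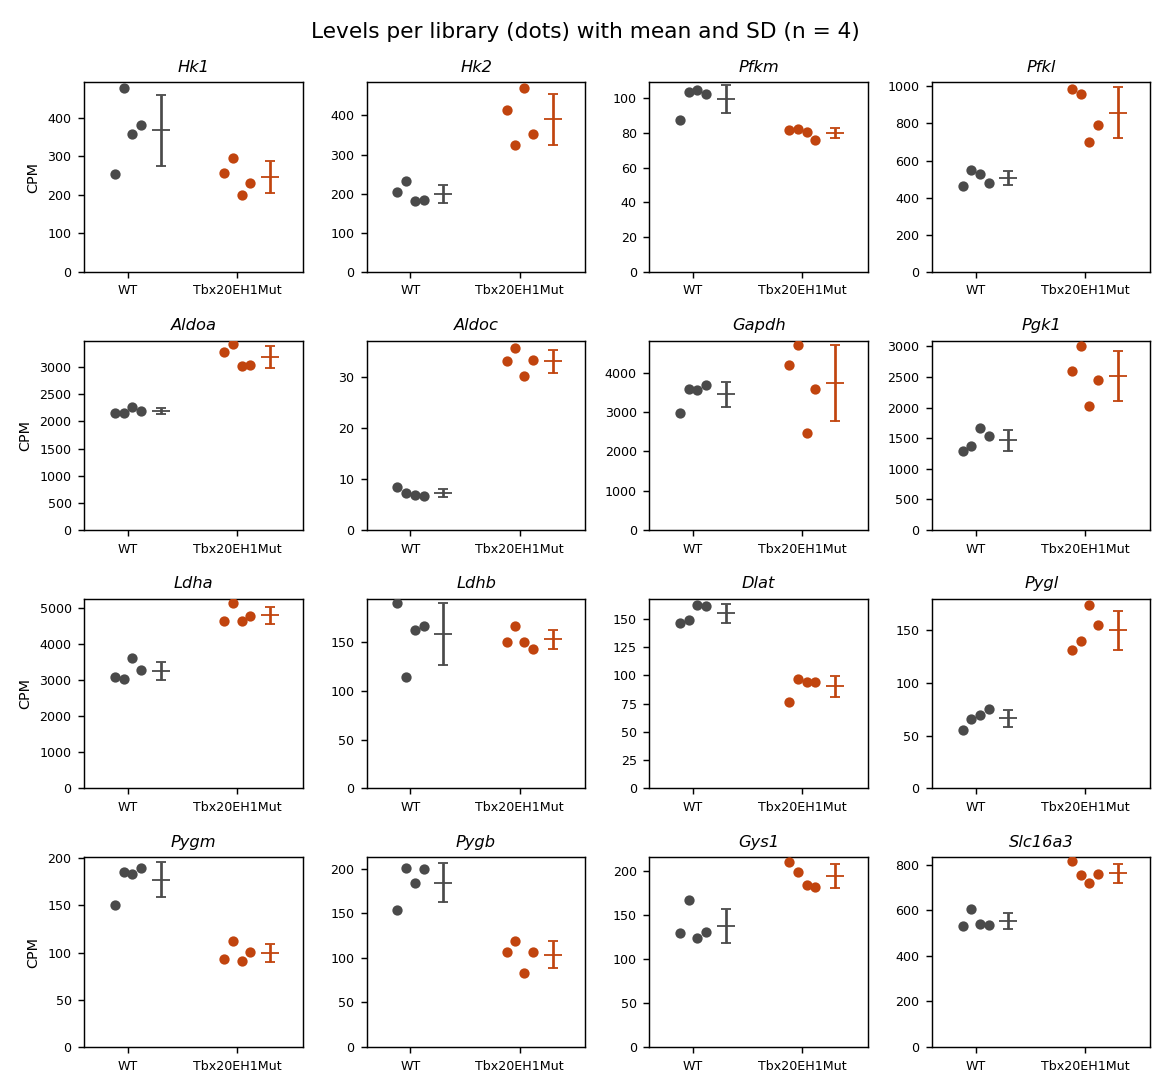
Level of 16 members in CPM (y axes, each starting at 0) in each of 4 wild-type and 4 Tbx20EH1Mut libraries (dots), with the mean and SD beside the dots. *Hk1*, *Gapdh* and *Ldhb* overlap between genotypes, while *Aldoc* goes from 7.298 to 33.03 CPM with little spread.

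Between the triose phosphates and pyruvate, only *Pgk1*, *Eno2* and *Pkm* rose among the 8 members, and none fell. *Gapdh*, the dehydrogenase that makes NADH, was at 2988, 3586, 3573 and 3694 CPM in wild-type libraries 1 to 4 and 4213, 4698, 2474 and 3602 CPM in Tbx20EH1Mut libraries 1 to 4. Tbx20EH1Mut libraries 1 and 2 lay above and library 3 below every wild-type library, and the test made no call (log2 fold change 0.11 ± 0.19 SE, edgeR adjusted p = 0.676). *Pgk1*, the kinase of the first ATP-yielding step, was at 1288, 1369, 1669 and 1533 CPM in wild-type libraries 1 to 4 and 2590.1, 3007, 2024 and 2456 CPM in Tbx20EH1Mut libraries 1 to 4. The mutant libraries all exceeded the wild-type libraries and *Pgk1* rose 1.72-fold (log2 fold change 0.78 ± 0.15 SE, edgeR adjusted p = 0.00488), with the smallest mutant value again in library 3. Of the 100-base stretches of its transcripts, 51.7% also occur in other genes, chiefly *Pgk1-rs7* and *Gm5537*, so its reads may be split with these copies. Such shared stretches made up 20.9% for *Gapdh*, 33.9% for *Pgam1* and 20.4% for *Eno1*, and at most 12.3% for every other member.

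The phosphoglycerate mutases were the most variable members. *Pgam1*, the general form, was at 235, 448, 410.3 and 387 CPM in wild-type libraries 1 to 4 and 318, 419.6, 105 and 228 CPM in Tbx20EH1Mut libraries 1 to 4. Its lowest mutant value was in library 3 and its lowest wild-type value in library 1. *Pgam2*, the muscle form, was at 488, 204, 336 and 336 CPM in wild-type libraries 1 to 4 and 348, 388, 708 and 489.8 CPM in Tbx20EH1Mut libraries 1 to 4, with its highest values in those same 2 libraries. Neither was called, with summed exon lengths of 1831 and 840 bases: *Pgam1* had a log2 fold change of -0.47 ± 0.36 SE (edgeR adjusted p = 0.343) and *Pgam2* one of 0.504 ± 0.28 SE (edgeR adjusted p = 0.194). With single libraries left out, *Pgam1* ranged from -0.77 without Tbx20EH1Mut library 2 to -0.19 without Tbx20EH1Mut library 3, and *Pgam2* from 0.26 without Tbx20EH1Mut library 3 to 0.72 without wild-type library 1. With wild-type library 1 and Tbx20EH1Mut library 3 left out together, a choice made after the data were seen, *Pgam1* stood at -0.35 (adjusted p = 0.186), *Pgam2* at 0.50 (adjusted p = 0.0858) and *Gapdh* at 0.22 (adjusted p = 0.214).

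Enolase makes phosphoenolpyruvate, and of its 3 genes *Eno2* alone was called. *Eno2*, the neuronal form (chr6:124760053-124769673), was at 8.68, 6.74, 7.15 and 9.06 CPM in wild-type libraries 1 to 4 and 18.2, 17.6, 13.8 and 16.6 CPM in Tbx20EH1Mut libraries 1 to 4. Every mutant library exceeded every wild-type library and *Eno2* rose 2.1-fold (log2 fold change 1.07 ± 0.15 SE, edgeR adjusted p = 0.00126). Of the 5 tested neural markers 1 rose, 1 fell and 3 were not called, and the part of neural cells in the *Eno2* value was not tested. *Eno1*, the general form, was at 2483 ± 455 CPM in wild-type against 2425 ± 729 CPM in Tbx20EH1Mut hearts and was not called (log2 fold change -0.03 ± 0.23 SE, edgeR adjusted p = 0.923), and its sign turned with the scaling. *Eno3*, the muscle form, was at 333 ± 29.02 CPM in wild-type against 398 ± 50.8 CPM in Tbx20EH1Mut hearts and was not called either (log2 fold change 0.26 ± 0.12 SE, edgeR adjusted p = 0.144). Per kilobase *Eno1* made up 70.1% ± 4.72 and *Eno3* 29.6% ± 4.66 of the summed enolase level in wild-type hearts, against 64.8% ± 10.5 and 34.7% ± 10.5 in mutant hearts, with overlap for both. *Eno2* made up only 0.262% ± 0.0637 and 0.518% ± 0.0274, without overlap. *Pkm*, the pyruvate kinase of heart and most embryonic tissues, rose 1.51-fold from 2643 ± 300.1 CPM to 4001 ± 494 CPM (log2 fold change 0.598 ± 0.14 SE, edgeR adjusted p = 0.0119). Gene counts do not separate its M1 and M2 splice forms, and 15.3% of its exon bases overlap other listed genes, chiefly *Gm49759* on the same strand.

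**Figure D3:**
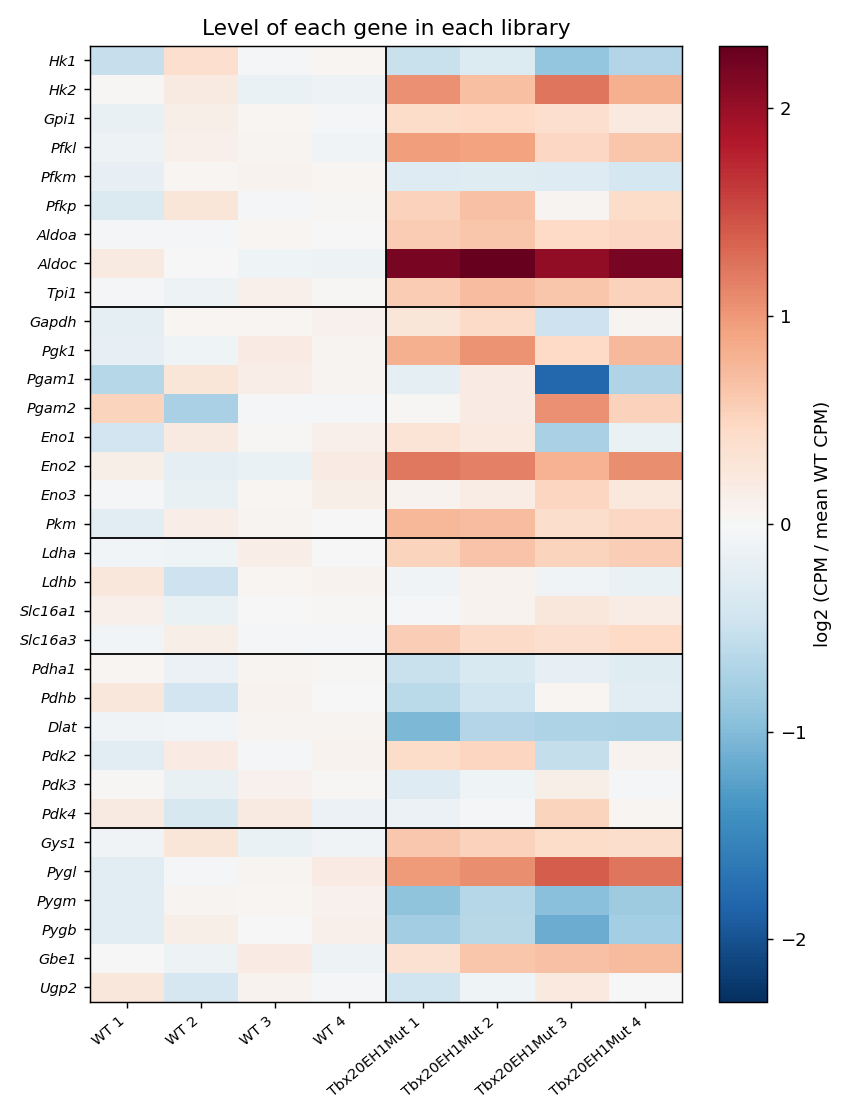
Level of each of the 33 members (rows) in each library (columns), as log2 of its CPM over the mean wild-type CPM, with red for higher and blue for lower. Within each genotype the *Gapdh*, *Pgam1* and *Eno1* rows are lowest in wild-type library 1 and Tbx20EH1Mut library 3, and the *Aldoc*, *Eno2*, *Hk2* and *Pygl* rows are red in all 4 mutant libraries.

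At the lactate branch, the gene for the muscle subunit of lactate dehydrogenase rose and that for the heart subunit showed no call. *Ldha* (chr7:46841475-46855627), whose subunit favours making lactate, was at 3096, 3017, 3596 and 3264 CPM in wild-type libraries 1 to 4 and 4619.5, 5129.6, 4635 and 4781 CPM in Tbx20EH1Mut libraries 1 to 4. The genotypes were fully apart and *Ldha* rose 1.48-fold (log2 fold change 0.56 ± 0.12 SE, edgeR adjusted p = 0.0071). *Ldhb*, whose subunit favours using lactate, was at 189, 114, 162 and 166 CPM in wild-type libraries 1 to 4 and 150.01, 166, 149.97 and 143 CPM in Tbx20EH1Mut libraries 1 to 4. All mutant libraries lay within the wild-type range, which was spread by libraries 1 and 2 (log2 fold change -0.05 ± 0.15 SE, edgeR adjusted p = 0.817). *Ldha* was already the major form in wild-type hearts, with 90.7% ± 1.71 of the summed level per kilobase, and it reached 93.7% ± 0.241 in mutant hearts without overlap. The summed lactate dehydrogenase level went from 1080.4 ± 85.6 to 1544 ± 76.7 CPM per kilobase, also without overlap.

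Of the 2 lactate carriers of the plasma membrane among the members, 1 was called. *Slc16a3*, the exporter MCT4, was at 529, 605, 539.8 and 536 CPM in wild-type libraries 1 to 4 and 816, 753, 718 and 759.6 CPM in Tbx20EH1Mut libraries 1 to 4. No libraries overlapped and *Slc16a3* rose 1.38-fold (log2 fold change 0.46 ± 0.11 SE, edgeR adjusted p = 0.0107). *Slc16a1*, the carrier MCT1 that works in either direction, was at 214 ± 17.1 CPM in wild-type against 232 ± 20.95 CPM in Tbx20EH1Mut hearts. It was not called (log2 fold change 0.12 ± 0.11 SE, edgeR adjusted p = 0.441). With single libraries left out, its log2 fold change ranged from 0.075 without Tbx20EH1Mut library 3 to 0.18 without Tbx20EH1Mut library 1. Per kilobase *Slc16a3* took 68.2% ± 2.997 of the summed level of both carriers in wild-type and 73.2% ± 2.75 in mutant hearts, and these shares overlapped.

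To show the promoters of genes that differ in response, RefSeq promoter windows of GRCm38.p6 were read for all 33 members, each covering 250 bases before to 50 bases after a transcript start, and were searched on both strands for ACGTG and GCGTG, the core of the hypoxia response element, and for AGGTGTGA, the T-box element. The palindrome CACGTG, an E-box, holds ACGTG on both strands and counts as 2 overlapping matches. ACGTG or GCGTG occurred in 23 of 33 member windows, or 69.7%, against 43.8% of all 32851 windows of that length. By call, 7 of the 14 members that rose held a match, 4 of the 6 that fell and 12 of the 13 not called, so the match did not follow the calls. ACGTG alone occurred in 16 member windows, or 48.5%, against 19.6% of all windows. Members gave 1 window each, and the 32851 windows were neither limited to the genes tested nor matched for base composition. These shares are therefore descriptions. AGGTGTGA occurred in 0 of the 33 member windows and in 1.28% of all windows. For *Aldoa*, *Ldha* and *Pygl* the RefSeq start lay 8661, 4329 and 3805 bases from the outermost 5′ end listed in the count tables, and these windows show 1 start of several. The lactate dehydrogenase pair is printed because *Ldha* rose and *Ldhb* was not called, from 250 bases before the start to the base before it, 5′ to 3′ on the gene's strand, with capitals for ACGTG or GCGTG on either strand. *Ldha* lies at chr7:46845554-46845803 on the plus strand and *Ldhb* at chr6:142507958-142508207 on the minus strand.
Ldha: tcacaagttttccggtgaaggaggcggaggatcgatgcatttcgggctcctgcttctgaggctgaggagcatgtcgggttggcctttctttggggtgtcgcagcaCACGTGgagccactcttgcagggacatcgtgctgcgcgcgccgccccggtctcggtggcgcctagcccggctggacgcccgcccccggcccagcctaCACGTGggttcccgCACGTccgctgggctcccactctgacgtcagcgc
Ldhb: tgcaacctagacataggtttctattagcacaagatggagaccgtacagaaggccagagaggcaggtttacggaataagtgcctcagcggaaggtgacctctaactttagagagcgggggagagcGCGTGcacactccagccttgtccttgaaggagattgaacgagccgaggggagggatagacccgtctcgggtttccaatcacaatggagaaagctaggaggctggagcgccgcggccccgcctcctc

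The *Ldha* stretch held 5 matches, all of ACGTG, at 145, 144, 48, 47 and 34 bases before the start, which include 2 copies of CACGTG. The *Ldhb* stretch held 1 match, a GCGTG at 126 bases before the start. A match describes the letters in this window and is no measured binding.

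The pyruvate dehydrogenase complex, which oxidizes pyruvate to acetyl-CoA, was lower in part. *Dlat*, its acetyltransferase core, was at 147, 149, 163 and 161 CPM in wild-type libraries 1 to 4 and 76.1, 96.7, 94.4 and 93.8 CPM in Tbx20EH1Mut libraries 1 to 4. The mutant libraries all lay below the wild-type libraries and *Dlat* fell 1.72-fold (log2 fold change -0.78 ± 0.11 SE, edgeR adjusted p = 0.00115). *Pdha1*, the catalytic alpha subunit, was at 245, 217, 248 and 244 CPM in wild-type libraries 1 to 4 and 167, 188, 208 and 196 CPM in Tbx20EH1Mut libraries 1 to 4. It fell 1.26-fold without overlap (log2 fold change -0.33 ± 0.11 SE, edgeR adjusted p = 0.0444), and the call was lost without 6 of the 8 libraries in turn, all but wild-type library 2 and Tbx20EH1Mut library 3, with an adjusted p of up to 0.111. Of its exon bases 16.1% overlap other listed genes, chiefly *Map3k15* on the other strand, and the strand setting of the counts is not known here. *Pdhb*, the beta subunit, was at 274 ± 53.8 CPM in wild-type against 223 ± 44.97 CPM in Tbx20EH1Mut hearts and was not called (log2 fold change -0.299 ± 0.18 SE, edgeR adjusted p = 0.232).

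The 3 member kinases that switch the complex off were not called. *Pdk2* was at 12.1 ± 1.59 CPM in wild-type against 13.6 ± 3.94 CPM in Tbx20EH1Mut hearts (log2 fold change 0.17 ± 0.22 SE, edgeR adjusted p = 0.583), *Pdk3* was at 115 ± 9.43 CPM in wild-type against 109.7 ± 13.6 CPM in Tbx20EH1Mut hearts (log2 fold change -0.07 ± 0.12 SE, edgeR adjusted p = 0.685), and *Pdk4* was at 13.8 ± 2.602 CPM in wild-type against 15.01 ± 3.24 CPM in Tbx20EH1Mut hearts (log2 fold change 0.12 ± 0.19 SE, edgeR adjusted p = 0.66). Without Tbx20EH1Mut library 2 the log2 fold change of *Pdk2* was 0.041, and without library 3 it was 0.35. Per kilobase *Pdk3* was the most abundant of the 3, with 85.2% ± 0.706 of their summed level in wild-type and 83.2% ± 2.198 in mutant hearts. *Pdk1*, another kinase of the family that was not among the 33, rose 2.01-fold from 180.4 ± 19.8 CPM to 362 ± 31.6 CPM (log2 fold change 1.01 ± 0.12 SE, edgeR adjusted p = 0.000505).

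In glycogen metabolism the genes of synthesis that were called rose, and the phosphorylases that break glycogen down split by isoenzyme. *Gys1*, the muscle glycogen synthase, was at 129.7, 166, 123 and 131 CPM in wild-type libraries 1 to 4 and 210.3, 198, 184 and 181 CPM in Tbx20EH1Mut libraries 1 to 4. It rose 1.41-fold without overlap (log2 fold change 0.49 ± 0.12 SE, edgeR adjusted p = 0.015), and the call was lost without wild-type library 3 (adjusted p = 0.0611) or 4 (adjusted p = 0.0588). *Gbe1*, the branching enzyme, rose 1.52-fold from 26.5 ± 2.797 CPM to 40.3 ± 4.59 CPM (log2 fold change 0.603 ± 0.12 SE, edgeR adjusted p = 0.00665). *Ugp2*, which makes the UDP-glucose that the synthase uses, was at 185 ± 33.1 CPM in wild-type against 178 ± 33.3 CPM in Tbx20EH1Mut hearts and was not called (log2 fold change -0.06 ± 0.17 SE, edgeR adjusted p = 0.819).

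Liver phosphorylase *Pygl* (chr12:70190811-70231488) was at 55.4, 65.4, 69.2 and 75.1 CPM in wild-type libraries 1 to 4 and 131, 139.6, 173 and 155 CPM in Tbx20EH1Mut libraries 1 to 4. Every mutant library was above every wild-type library and *Pygl* rose 2.25-fold (log2 fold change 1.17 ± 0.13 SE, edgeR adjusted p = 0.000363). Muscle phosphorylase *Pygm* was at 150.1, 186, 183 and 189.8 CPM in wild-type libraries 1 to 4 and 93.3, 113, 91.3 and 101 CPM in Tbx20EH1Mut libraries 1 to 4. Brain phosphorylase *Pygb* was at 153, 201, 184 and 199.7 CPM in wild-type libraries 1 to 4 and 106, 119, 83.3 and 107 CPM in Tbx20EH1Mut libraries 1 to 4. The last pair fell by nearly the same factor, *Pygm* 1.78-fold (log2 fold change -0.83 ± 0.12 SE, edgeR adjusted p = 0.0012) and *Pygb* 1.78-fold (log2 fold change -0.83 ± 0.14 SE, edgeR adjusted p = 0.00258), each without overlap.

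Per kilobase *Pygm* was the most abundant phosphorylase of wild-type hearts, with 49.7% ± 0.547 of the summed level, before *Pygb* with 34.6% ± 0.899 and *Pygl* with 15.6% ± 0.731. In mutant hearts *Pygl* came first with 42.7% ± 5.15, before *Pygm* with 33.7% ± 2.14 and *Pygb* with 23.6% ± 3.19. The *Pygl* share was 15.6%, 14.6%, 15.96% and 16.3% in the wild-type libraries and 40.03%, 37.9%, 49.7% and 43.01% in the mutant libraries, so that *Pygl* led in each mutant library and was last in each wild-type library. The summed level of the 3 genes, 111 ± 12.2 CPM per kilobase in wild-type and 91.6 ± 4.76 in mutant hearts, overlapped between genotypes.

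The upstream stretches of the 3 phosphorylase genes are printed because their levels moved apart, as the longest part of the 250 bases before the RefSeq start that lies in no listed exon, 5′ to 3′ on the gene's strand and with the same capitals. *Pygl* lies at chr12:70227684-70227840 on the minus strand, *Pygm* at chr19:6384158-6384398 on the plus strand and *Pygb* at chr2:150786546-150786734 on the plus strand, all in GRCm38.p6.
Pygl: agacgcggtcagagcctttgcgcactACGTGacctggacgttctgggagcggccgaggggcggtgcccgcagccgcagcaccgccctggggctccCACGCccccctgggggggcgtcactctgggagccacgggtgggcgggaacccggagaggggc
Pygm: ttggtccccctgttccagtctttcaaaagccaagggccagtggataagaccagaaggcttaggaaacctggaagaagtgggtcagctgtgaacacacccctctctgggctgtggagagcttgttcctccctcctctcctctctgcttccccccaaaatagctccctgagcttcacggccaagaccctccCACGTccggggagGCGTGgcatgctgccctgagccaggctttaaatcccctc
Pygb: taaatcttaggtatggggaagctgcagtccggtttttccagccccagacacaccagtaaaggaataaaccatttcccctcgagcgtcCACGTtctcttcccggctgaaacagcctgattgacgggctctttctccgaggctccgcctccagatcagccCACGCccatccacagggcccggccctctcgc

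Each of the 3 stretches held 2 matches, of which 1 was ACGTG. The matches began 131 and 62 bases before the start of *Pygl*, 61 and 48 bases before that of *Pygm*, and 163 and 92 bases before that of *Pygb*. The gene that rose and the genes that fell were thus not told apart by these letters.

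Ratios of isoenzyme genes within a library do not depend on how that library is scaled, and the mean log2 ratio of 13 pairs was tested by exact two-sided permutation of the genotypes over the libraries. Of these, 7 did not overlap between genotypes and had an exact p = 0.0286, the smallest that the 70 arrangements of 4 against 4 libraries allow. After Benjamini-Hochberg adjustment over the 13 ratios that p became 0.0531, so 0 ratios passed the threshold and 7 were under 0.05 before adjustment in this exact test. As all 7 had the smallest possible p, a larger difference in any of them could not have passed either. The mutant minus wild-type log2 ratio was 2.01 for *Pygl* to *Pygb*, 1.64 for *Aldoc* to *Aldoa* and 1.51 for *Hk2* to *Hk1*. It was 1.14 for *Eno2* to *Eno1*, 1.07 for *Pfkl* to *Pfkm* and 0.75 for *Pfkp* to *Pfkm*. For *Ldhb* to *Ldha* it was -0.60, the only one of the 7 in which the second gene of the pair gained. The plot of isoform ratios shows all 4 mutant libraries to the right of the wild-type libraries for the other 6 of these pairs.

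**Figure D4:**
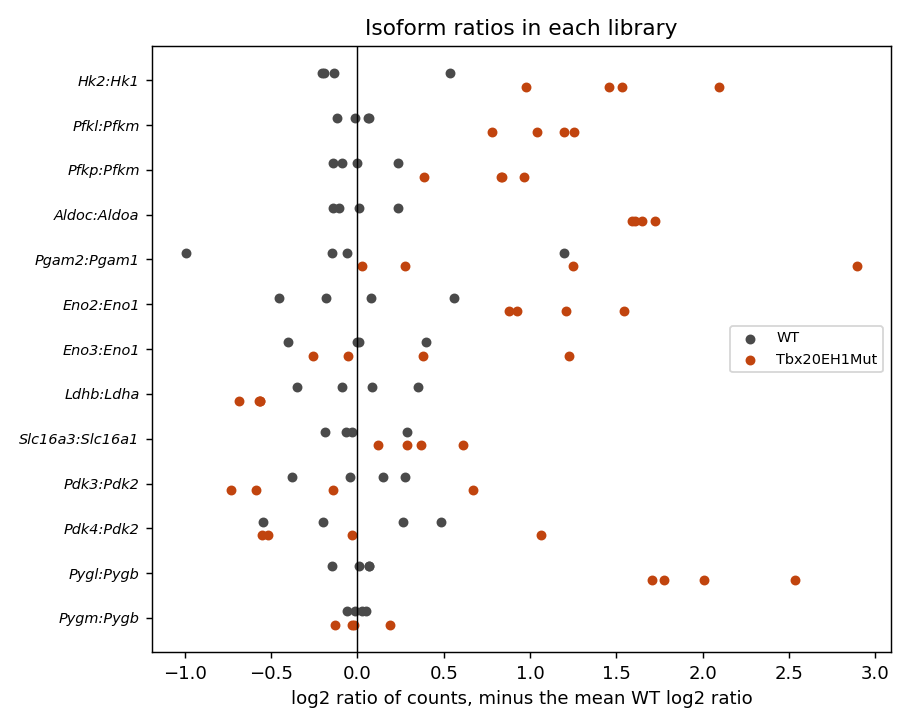
Log2 ratio of counts of 2 isoenzyme genes in each library, minus the mean of the wild-type libraries (x axis), for 13 pairs (y axis), with 1 dot per library. The ratios of *Pygl* to *Pygb*, *Aldoc* to *Aldoa* and *Hk2* to *Hk1* lie farthest from the wild-type dots, and those of *Pgam2* to *Pgam1* spread most.

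The other 6 ratios overlapped. The difference was 1.11 (exact permutation p = 0.143) for *Pgam2* to *Pgam1*, where Tbx20EH1Mut library 3 alone stood at 2.75 and the other mutant libraries lay between -0.11 and 1.10. Without Tbx20EH1Mut library 3 this difference was 0.52, and without wild-type library 1 it was 1.51. It was 0.35 (exact permutation p = 0.0571) for *Slc16a3* to *Slc16a1* and 0.32 (exact permutation p = 0.486) for *Eno3* to *Eno1*, and the latter was 0.021 without Tbx20EH1Mut library 3. *Pygm* to *Pygb* gave 0.0017 (exact permutation p = 1), with all 8 libraries between -0.19 and 0.13 on the log2 scale, so the 2 genes fell side by side. *Pdk3* to *Pdk2* gave -0.20 (exact permutation p = 0.6), or -0.49 without Tbx20EH1Mut library 3, -0.068 without library 2 and -0.020 without library 1, and *Pdk4* to *Pdk2* gave -0.0077 (exact permutation p = 0.971). Of the 4 listed muscle isoforms *Pfkm*, *Pgam2*, *Eno3* and *Pygm*, 2 were called lower, against 15.3% of all genes tested, and 2 were not called. The *Pfkm* call was kept without wild-type library 1 but lost without any other single library. *Hk2*, *Aldoa*, *Ldha* and *Gys1*, which rose, are also forms found in muscle but were not part of that list.

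Glucose transporters stand before the members in the pathway, and 3 of the 6 tested rose while none fell. Against this count and those of the lists that follow stand the 14.0% called higher and the 15.3% called lower among all genes tested. *Slc2a3*, the high-affinity carrier GLUT3, rose 3.13-fold from 143 ± 46.5 CPM to 449 ± 97.1 CPM (log2 fold change 1.65 ± 0.24 SE, edgeR adjusted p = 0.00132). *Slc2a1*, the basal carrier GLUT1, rose 1.5-fold from 1337 ± 138 CPM to 2005 ± 277 CPM, and *Slc2a4*, the insulin-responsive carrier GLUT4, rose 1.6-fold from 13.96 ± 1.86 CPM to 22.3 ± 2.84 CPM (edgeR adjusted p = 0.0125 and 0.00739). *Slc2a1* rose by about the same factor as *Ldha*, *Aldoa*, *Tpi1* and *Pkm*, whose folds lay between 1.45-fold and 1.54-fold.

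Of 13 tested glycolysis genes outside the 33, 2 rose and 6 fell. *Pfkfb3*, which makes the activator of phosphofructokinase, rose by 0.87 on the log2 scale (edgeR adjusted p = 0.0194) with overlap, and lost its call without wild-type library 3 or 4 or Tbx20EH1Mut library 1 (adjusted p up to 0.0614). *Tigar*, which removes that activator, fell from 33.9 ± 3.29 CPM to 15.9 ± 2.26 CPM (log2 fold change -1.09 ± 0.14 SE, edgeR adjusted p = 0.000599). *Pgam5*, a mitochondrial phosphatase of the mutase family, went from 22.4 ± 9.91 CPM to 8.06 ± 4.06 CPM with overlap (log2 fold change -1.48, adjusted p = 0.0281 by edgeR), a call lost without wild-type library 2, 3 or 4 or Tbx20EH1Mut library 1 or 4 (adjusted p up to 0.0809). *Pklr*, the pyruvate kinase of liver and red blood cells, fell from 2.67 ± 1.25 CPM to 0.309 ± 0.299 CPM (log2 fold change -3.08 ± 0.76 SE, edgeR adjusted p = 0.0143), and without wild-type library 4, which held its highest level, the adjusted p was 0.0506. The erythroid markers fell in the same comparison, and wild-type library 4 also held their highest sum, but their part in *Pklr* was not tested.

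Around pyruvate and lactate, 4 of 13 tested genes outside the 33 rose and 3 fell, against 14.0% called higher and 15.3% called lower among all genes tested. Besides *Pdk1*, *Bsg* rose, the chaperone basigin that carries MCT1 and MCT4 to the membrane, from 759 ± 94.3 CPM to 1514 ± 105 CPM (log2 fold change 0.996 ± 0.13 SE, edgeR adjusted p = 0.000692). *Emb*, a related chaperone, rose by 0.63 with overlap (edgeR adjusted p = 0.0301), a call lost without wild-type library 3 or 4 or Tbx20EH1Mut library 1 or 2 (adjusted p up to 0.0938). Among genes of the complex and its regulators, *Dld*, the dehydrogenase subunit, was called lower with overlap (log2 fold change -0.41, edgeR adjusted p = 0.044), a call lost without 6 of the 8 libraries in turn, all but wild-type library 2 and Tbx20EH1Mut library 3 (adjusted p up to 0.111). *Pdhx*, which anchors a subunit, fell from 53.5 ± 9.53 CPM to 31.8 ± 3.64 CPM, and *Pdpr*, the regulatory subunit of the phosphatase that switches it on, fell from 10.5 ± 8.26 CPM to 2.22 ± 0.558 CPM (log2 fold changes -0.75 and -2.24, edgeR adjusted p = 0.00509 and 0.0113). The wild-type level of *Pdpr* was highest in library 2, at 22.2 CPM against 2.82 to 8.82 CPM in the others, and without that library its log2 fold change was -1.56, still called. *Pdp1*, a catalytic subunit of that phosphatase, was called higher with overlap (log2 fold change 0.54 ± 0.17 SE, edgeR adjusted p = 0.0387), a call lost without 6 of the 8 libraries in turn, all but wild-type library 3 and Tbx20EH1Mut library 1 (adjusted p up to 0.0895). Downstream, 10 of 16 TCA cycle enzymes fell and none rose, with a median log2 fold change of -0.50. Among those that fell were *Ogdh* (log2 fold change -1.32, adjusted p = 0.000815 by edgeR), *Idh3a* (-0.94, adjusted p = 0.00148), *Dlst* (-0.900, adjusted p = 0.000378) and citrate synthase *Cs* (-0.84, adjusted p = 0.0012). The share of counts from mitochondrially encoded genes was 1.84% to 2.04% in wild-type and 0.69% to 0.868% in mutant libraries.

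Among 20 tested glycogen genes outside the 33, 3 rose and 4 fell, a share close to the 14.0% called higher and 15.3% called lower among all genes tested. *Epm2a*, the glycogen phosphatase laforin, rose by 1.32 (edgeR adjusted p = 0.000301). *Ppp1r3c*, which targets a phosphatase to glycogen and favours synthesis, rose by 0.97 (edgeR adjusted p = 0.00134), while its muscle counterpart *Ppp1r3a* fell from 5.07 ± 0.751 CPM to 0.796 ± 0.255 CPM (log2 fold change -2.67, adjusted p = 0.000309 by edgeR). *Pgm1*, which links glucose phosphates to glycogen, rose by 0.65 (edgeR adjusted p = 0.00254). Of 7 pentose phosphate enzymes 2 were called, a share close to the 29.3% of all genes tested, and both fell, *Taldo1* (log2 fold change -0.61, adjusted p = 0.00587 by edgeR) and *Rpia* (-0.53, adjusted p = 0.0337), the latter kept only without wild-type library 2 among the libraries left out in turn (adjusted p otherwise up to 0.0908). Of 2 tested enzymes of the gluconeogenesis bypass, *Pck2*, the mitochondrial PEP carboxykinase, rose by 1.08 (edgeR adjusted p = 0.00767).

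Several members that rose are known targets of the hypoxia-inducible factors, and other genes induced by low oxygen were read beside them. All 15 such genes outside glycolysis rose, without overlap between genotypes, with a median log2 fold change of 1.52 beside 0.26 for the 33 members. The largest rises were those of *Ddit4*, an inhibitor of mTOR signalling (log2 fold change 3.204, adjusted p = 3.7e-05 by edgeR), and *Ndrg1* (3.04, adjusted p = 0.000223), followed by *Ankrd37* (2.45, adjusted p = 8.2e-06), the oxygen sensor *Egln3* (2.32, adjusted p = 2.1e-05) and the mitophagy receptor *Bnip3* (2.04, adjusted p = 2.2e-05). The list was chosen with earlier results of these hearts known and is a description. Among the members only *Aldoc* reached the range of these 5 genes. The plot of lists shows each tested gene beside the median of its list.

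**Figure D5:**
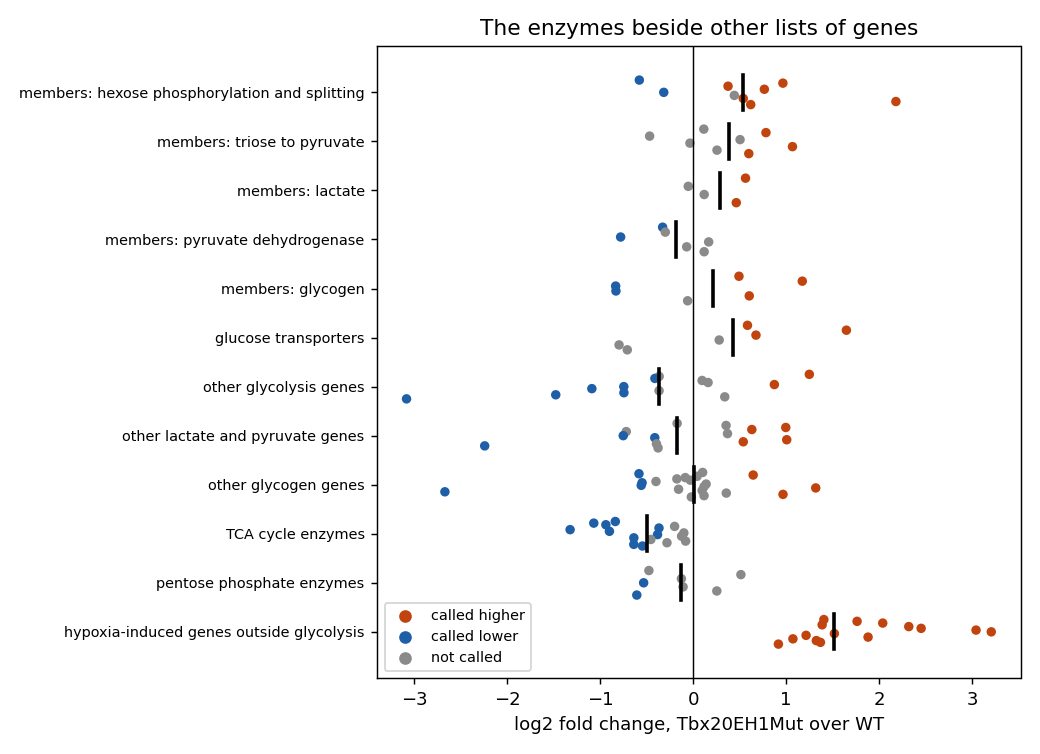
Log2 fold change in Tbx20EH1Mut over wild-type hearts (x axis) of every tested gene of 12 lists (y axis), with 1 dot per gene coloured by its edgeR call and a black bar at the median of the list. The hypoxia-induced genes all lie to the right of 0, and no TCA cycle enzyme does.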

How the data were processed

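The authors prepared poly-A selected RNA-seq libraries of whole E9.5 hearts, 4 per genotype and described as biological replicates of 3 pooled hearts, and deposited 1 table per library of raw counts per Ensembl gene, with no normalization. The submitters' processing notes name Trimmomatic 0.36, STAR 2.5.2b and the build GRCm38 (mm10), while the counting tool and its strand setting are not given in the sources used here. Symbols were matched by identifier to GENCODE M21 for 48970 of 49315 genes, of which 91.4% had the same start and end. Total counts of 33359322 to 49523086 per library make genes of a few CPM the least precise, and PCR copies were not marked by molecular identifiers.

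Groups were taken from the sample labels. Counts were filtered with filterByExpr, scaled by TMM and tested with glmQLFit and glmQLFTest of edgeR 4.0.16 in R 4.3.3, with genotype as the only term (common dispersion 0.0707). Benjamini-Hochberg adjustment covered the 17163 genes left, and genes with an adjusted p of 0.05 or less were called. CPM of edgeR was divided by the summed exon length of the tables for levels per kilobase. Isoform ratios used counts plus 0.5 and an exact two-sided permutation test with scipy 1.17.1. No libraries of a genotype held identical counts or agreed within sampling noise, and each was counted as 1 replicate, as labelled. The members and all gene lists were chosen with earlier results of these data known. All 33 members are named, and of every other list the called genes, at most the 5 with the largest absolute log2 fold change, except where a further gene is named in the text, and some called genes of these lists, which the counts include, are not reported here. The settings varied were RLE size factors, upper-quartile scaling, DESeq2 1.42.0, limma-voom of limma 3.58.1, no filter on low counts, a minimum of 10 counts in each library, a replicate block, and leaving out each library in turn. Tables and plots were made with Python 3.11.15, pandas 2.3.3, numpy 2.4.6 and matplotlib 3.10.9.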

Additional observations from a re-analysis of the deposited data

Results flagged for a closer look

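Among the 66 groups of 4 libraries made by the members and the 26 made by the isoform ratios, 7 held a library that stood far from the other 3 of its genotype, by a gap of more than 0.829 of the group's range (Dixon's criterion). Chance alone gives about 1 such group in 20. In wild-type library 1, *Pfkm* was at 87.7 CPM, below 102 to 105 CPM in the others, *Pygm* was at 150.1 CPM, below 183 to 190 CPM, and the log2 ratio of *Hk2* to *Hk1* was -0.32, above -1.05 to -0.99. In wild-type library 2, *Slc16a3* was at 605 CPM, above 529 to 539.8 CPM, and *Pdha1* was at 217 CPM, below 244 to 248 CPM. In Tbx20EH1Mut library 1, *Dlat* was at 76.1 CPM, below 93.8 to 96.7 CPM. In Tbx20EH1Mut library 4, the log2 ratio of *Ldhb* to *Ldha* was -5.07, below -4.95 to -4.94. For *Pfkm*, *Pygm*, *Slc16a3* and *Pdha1* the deviating wild-type library lay outside the mutant range, and leaving it out kept their calls.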

How the results depend on the processing

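Of the 33 members, 15 were called under all 15 alternatives (7 other settings and each of the 8 libraries left out), 12 of them higher (*Aldoa*, *Aldoc*, *Eno2*, *Gbe1*, *Hk2*, *Ldha*, *Pfkl*, *Pgk1*, *Pkm*, *Pygl*, *Slc16a3*, *Tpi1*) and 3 lower (*Dlat*, *Pygb*, *Pygm*). The cause of the changes below was not tested. With each library left out in turn, 3001 to 6586 genes were called, 1436 to 3237 higher and 1496 to 3349 lower, against 5024, 2406 and 2618 with all libraries. The fewest calls came without wild-type library 4, with 3061 without wild-type library 3 and 3028 without Tbx20EH1Mut library 4. The members called lower numbered 3 to 5 in these fits and 3 with upper-quartile scaling, against 6. Calls numbered 3 to 8 for the other glycolysis genes, 4 to 7 for the other lactate and pyruvate genes, 1 to 3 for the pentose phosphate enzymes and 1 to 2 for the muscle isoforms. Upper-quartile scaling, which moved the median of all genes to 0.089, left 1 call among the pentose phosphate enzymes and 1 among the muscle isoforms. The fit with no filter on low counts left 1 among the muscle isoforms. The members that lost their call were *Hk1*, *Pfkm* and *Pdha1* with upper-quartile scaling and *Hk1* in limma-voom. With no filter on low counts they were *Gpi1*, *Pfkm* and *Pdha1*.

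Uncalled members turned sign. Upper-quartile scaling gave log2 fold changes of 0.059 for *Eno1*, 0.024 for *Ldhb*, 0.012 for *Pdk3* and 0.017 for *Ugp2*. With each library left out, *Gapdh* ranged from -0.015 to 0.28, *Eno1* from -0.16 to 0.15, *Ldhb* from -0.17 to 0.043, *Pdk3* from -0.14 to 0.0090, *Pdk4* from -0.037 to 0.20 and *Ugp2* from -0.16 to 0.0595. The log2 ratio of *Pdk4* to *Pdk2* ranged from -0.37 to 0.17 and that of *Pygm* to *Pygb* from -0.061 to 0.046. In alternatives chosen after the data were seen, wild-type library 1 and Tbx20EH1Mut library 3 left out together gave 0.039 for *Eno1* and 0.068 for *Ldhb*, and wild-type library 2 and Tbx20EH1Mut libraries 1 and 2 left out together gave -0.16 for *Gapdh*, -0.11 for *Pdk2*, 0.018 for *Ugp2*, 3 members called lower and 1 call among the muscle isoforms. Wild-type library 2 and Tbx20EH1Mut libraries 1 and 4 left out together, also chosen after the data were seen, left 1164 genes called, 682 higher and 482 lower, and 7 members, 5 higher and 2 lower, in a fit of 5 libraries, while fold changes of members that lost their call stayed near those with all libraries (*Tpi1* 0.65 against 0.62, *Gbe1* 0.62 against 0.60, *Slc16a3* 0.47 against 0.46), *Hk1* moving most. Calls then numbered 3 for the other glycolysis genes, 1 for the glucose transporters, 4 for the other lactate and pyruvate genes, 4 for the other glycogen genes, 0 for the gluconeogenesis bypass (1 with an unadjusted edgeR p under 0.05), 5 for the TCA cycle, 0 for the pentose phosphate enzymes (2 unadjusted) and 1 for the muscle isoforms, with 15 for the hypoxia-induced genes.

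Libraries of the same number had correlations of deviations of -0.354, 0.38, 0.0765 and 0.0753, within the -0.497 to 0.505 of libraries of different number. What the number stands for is not given in the sources used here, and these values do not decide it. With the replicate block 3945 genes and 16 members were called, 3 of them lower, with 1 call among the pentose phosphate enzymes and 1 among the muscle isoforms. The members that lost their call with it were *Hk1*, *Gpi1*, *Pfkm* and *Pdha1*. The isoform ratios passed in 0 cases under every alternative, none of which could reach the threshold with fewer libraries or with the sign permutation of the block, whose smallest p is 0.125.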
